A study of Mus musculus with 2 samples.

Results

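The interferon regulatory factors (IRF) are a family of transcription factors, and the genes described here are the 8 whose Entrez Gene number maps to Irf1, Irf2, Irf3, Irf4, Irf5, Irf7, Irf8 or Irf9. All 8 were listed with reads in both deposited libraries, among 18090 gene IDs in either library. The libraries are RNA-seq of mouse dendritic cells grown from C57BL/6 bone marrow, 1 labelled immature and 1 labelled mature. Marrow of either group was cultured for 6 days with 10 ng/ml of GM-CSF and 1 ng/ml of IL-4, growth factors that drive precursors towards dendritic cells. The mature cells, read here as sample 2 of the protocol, then received lipopolysaccharide (LPS, a bacterial cell wall component) at 100 ng/ml for 24 h in the same factors. Cells of either group were sorted by surface I-Ab, an MHC class II molecule, and CD86. Whether the immature cells were cultured for the same extra time, how many animals gave marrow and how the gates were set is not given in the sources used here.

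All IRF proteins bind DNA through a domain with a repeat of conserved tryptophans, which recognises the sequence GAAA, usually as a tandem repeat. IRF3 and IRF7 are activated by phosphorylation after a pathogen is sensed and switch on the type I interferon genes, and IRF5 is known for driving inflammatory cytokine genes. IRF9 is the DNA-binding subunit of the complex ISGF3, which acts downstream of the interferon receptor, while IRF1 activates and IRF2 mostly represses overlapping sets of genes. IRF4 and IRF8 are the lineage factors among them: they bind DNA weakly alone, act with partners such as PU.1 (gene Spi1) and BATF, and are needed for different types of conventional dendritic cell.

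The family's own start sites are shown because several of its genes are known targets of interferon, NF-kB and IRF signalling. RefSeq start sites on GRCm38.p6 were held for all 8 genes, with 11 start sites in all. That build differs from mm8, the build named for the deposited values. In each window of 300 bases, from 250 before to 50 after the start, the motifs GAAA, any 2 bases, GAAA (ISRE-like, the tandem repeat bound by IRFs and ISGF3), GGAA, any 2 bases, GAAA (a composite of an ETS site and an IRF site), TTC, any 3 bases, GAA (GAS-like, the site of STAT dimers) and the NF-kB motif were searched on both strands. TATAAA, the TATA box of the core promoter, was searched on the gene's strand with its first base 40 to 20 bases before the start, and was added after the sequences had been read. The ISRE-like and the ETS-IRF motif can overlap, as can the ISRE-like motif with itself. The 250 bases before the first start site follow for the genes with a match, 5′ to 3′ on the gene's strand, with matches in capitals.
Irf8, chr8:120736108-120736357 (+): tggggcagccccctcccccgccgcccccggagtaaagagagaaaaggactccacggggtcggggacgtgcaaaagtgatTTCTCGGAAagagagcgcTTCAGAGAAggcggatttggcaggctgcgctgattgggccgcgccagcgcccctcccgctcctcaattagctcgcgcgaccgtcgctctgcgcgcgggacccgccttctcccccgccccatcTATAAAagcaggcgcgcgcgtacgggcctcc
Irf7, chr7:141266425-141266674 (-): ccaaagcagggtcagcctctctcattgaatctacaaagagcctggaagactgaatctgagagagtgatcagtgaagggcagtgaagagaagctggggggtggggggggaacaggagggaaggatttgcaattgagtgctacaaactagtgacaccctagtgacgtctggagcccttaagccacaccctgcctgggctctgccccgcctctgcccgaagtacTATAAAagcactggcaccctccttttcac
Irf4, chr13:30748983-30749232 (+): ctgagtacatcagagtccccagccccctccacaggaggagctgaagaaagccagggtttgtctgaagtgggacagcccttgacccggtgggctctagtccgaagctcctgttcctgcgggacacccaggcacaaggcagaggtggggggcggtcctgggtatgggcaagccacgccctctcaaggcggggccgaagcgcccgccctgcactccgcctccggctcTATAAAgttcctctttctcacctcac
Irf1, chr11:53769764-53770013 (+): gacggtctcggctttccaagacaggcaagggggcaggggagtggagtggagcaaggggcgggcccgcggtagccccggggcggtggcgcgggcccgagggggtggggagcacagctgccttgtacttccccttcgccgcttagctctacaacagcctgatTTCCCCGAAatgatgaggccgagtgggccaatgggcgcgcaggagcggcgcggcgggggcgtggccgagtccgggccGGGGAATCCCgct
Irf2, chr8:46739495-46739744 (+): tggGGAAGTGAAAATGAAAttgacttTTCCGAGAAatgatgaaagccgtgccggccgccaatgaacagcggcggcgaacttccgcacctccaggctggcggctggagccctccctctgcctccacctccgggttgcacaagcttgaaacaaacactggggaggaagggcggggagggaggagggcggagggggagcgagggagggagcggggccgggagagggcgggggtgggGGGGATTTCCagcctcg

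Irf8, Irf7 and Irf4 shared a TATAAA, which began 31, 29 and 26 bases before the start and which 1.99% of all 32841 promoters held. Irf8 also held 2 GAS-like matches, 171 and 153 bases before the start. Irf1 held a GAS-like match 90 bases before the start. An NF-kB match, GGGGAATCCC, began 13 bases before the start and fitted the motif on both strands. Irf2 held every motif but TATAAA: an ETS-IRF match and an ISRE-like match overlapped in the run GGAAGTGAAAATGAAA, followed by a GAS-like match 224 bases and an NF-kB match 17 bases before the start. ISRE-like matches were found in 3.44% of all promoters, ETS-IRF matches in 2.72%, GAS-like matches in 8.30% and NF-kB matches in 4.51%. No match was found in the windows of Irf3, Irf5 and Irf9, which says only that these letters are not there. A match is a run of letters, and binding was not measured.

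Each gene's level is given as RPKM, the reads counted for each kilobase of the gene and each 1000000 counted reads. The immature library held 7.56 M counted reads and the mature library 8.07 M, and the 8 genes took 7880 and 18700 of them. There was 1 library per group, so no test was made. Every ratio is mature over immature RPKM with an exact 95% interval in parentheses that covers counting error only, the narrowest error that applies. A gene was called higher or lower at 2-fold on the scale of log2 (RPKM + 1), if it reached 1 RPKM in a library. All 8 members did.

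Of the 8 members, 3 were called higher in mature cells (Irf7, Irf8 and Irf9), 0 were lower and 5 lay within 2-fold. Over all 11547 compared genes, 9.05% were higher and 11.3% lower. The median log2 fold of the 8 members was 0.44, against 0.026 over all compared genes. In a bulk library, a larger share of cells that use a gene and more RNA per cell cannot be told apart. The 8 genes summed to 409.3 RPKM in the immature library and to 874 RPKM, 2.13 times as much, in the mature one. Irf7 and Irf8 made up 91.6% of the difference: without them the sum was 365 and 404 RPKM.

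**Figure D1:**
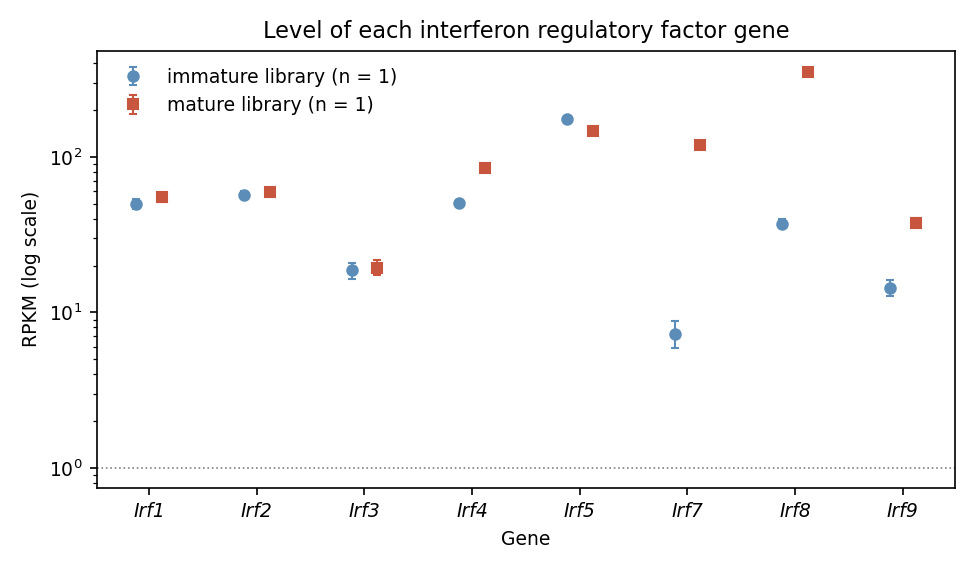
RPKM (log axis) of each of the 8 genes in the immature (blue circles) and the mature library (red squares), 1 library each, with exact 95% Poisson intervals of the read count; the dotted line marks 1 RPKM. Irf7, Irf8 and Irf9 lie apart between the libraries by more than 2-fold, and Irf1, Irf2, Irf3 and Irf5 lie close together.

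In the immature library Irf5 was the most abundant member at 175 RPKM, 3.09 times (2.88 to 3.32) the next gene, Irf2. Irf2, Irf4, Irf1 and Irf8 followed at 56.6, 50.6, 49.7 and 37.2 RPKM, then Irf3 at 18.6, Irf9 at 14.3 and Irf7 at 7.30 RPKM. Of these neighbours, Irf4 and Irf1 did not differ beyond counting error. In the mature library the order was Irf8 at 350.4 RPKM, Irf5 at 147, Irf7 at 119, Irf4 at 85.1, Irf2 at 59.8, Irf1 at 54.9, Irf9 at 37.7 and Irf3 at 19.4 RPKM. There Irf2 and Irf1 were the neighbours that did not differ beyond counting error. The leading place thus went from Irf5, the cytokine-driving factor, to Irf8, the lineage factor.

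**Figure D2:**
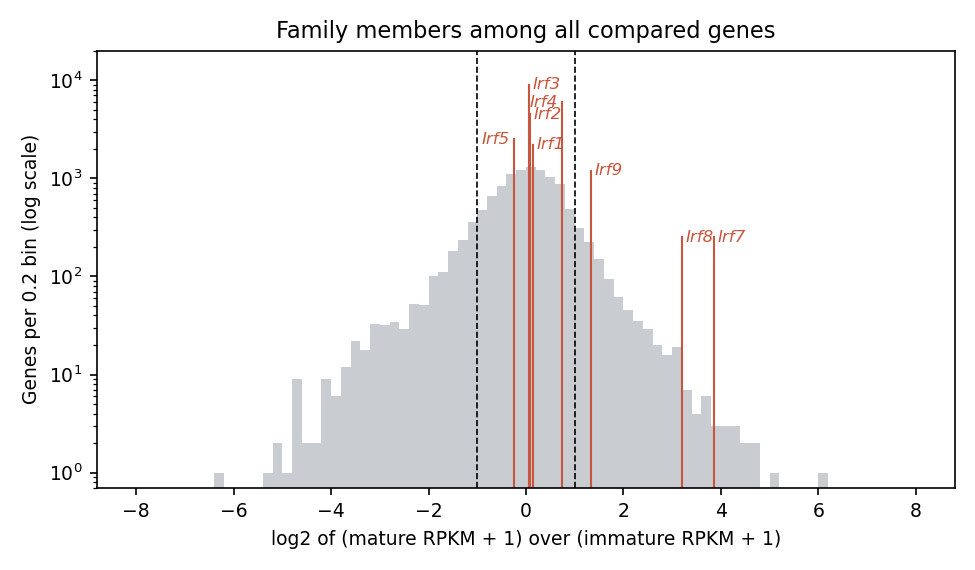
Histogram (log axis of counts, bins of 0.2) of the log2 fold on the RPKM + 1 scale for the 11547 compared genes, with red lines at the 8 compared family members and dashed lines at 2-fold. The heights of the red lines serve only to place the names. Irf7 and Irf8 stand in the upper tail at 3.86 and 3.20, Irf9 just past the 2-fold line at 1.34, Irf4 at 0.74 to the right of the centre, and Irf1, Irf2, Irf3 and Irf5 near it.

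Irf7, the factor that amplifies type I interferon production, had 101 reads in the immature library and 1759 in the mature one, 7.30 and 119 RPKM. The ratio was 16.3 (13.3 to 20.1) and the log2 fold of 3.86 lay at percentile 99.9 of all compared genes. By level Irf7 went from place 6816 to place 544 of 18090 genes. Irf3, which is present before infection and starts the same response, had 287 and 319 reads, 18.6 and 19.4 RPKM. Its ratio of 1.04 (0.885 to 1.23) is within counting error of no difference. Within a library, where scaling between libraries plays no part, Irf7 stood at 0.392 (0.310 to 0.494) times Irf3 in immature and at 6.15 (5.46 to 6.95) times Irf3 in mature cells, so the ratio differed 15.7-fold (12.04 to 20.4). Irf5 had 2753 and 2470 reads and was 1.19-fold lower (1.13 to 1.26) in the mature library, the only one of the 8 compared members with an interval wholly below no difference. Part of the Irf5 reads could belong to Tnpo3, a nuclear import receptor gene that overlaps Irf5 in the RefSeq table and stood at 32.9 and 30.7 RPKM, because the strand use of the counting is not given.

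IRF3, IRF5 and IRF7 are switched on by sensors, adaptors and kinases. Of 21 compared genes of this arm, 3 were at least 2-fold higher (14.3%), 3 lower (14.3%) and 15 within 2-fold, near the 9.05% and 11.3% of all compared genes, with a median log2 fold of 0.14. One more symbol, Tasl, had no match. This list and those below were chosen with earlier results of these data known, so their counts are description only. Ticam1, which encodes TRIF, the adaptor that links Tlr4 to IRF3, stood at 9.60 and 37.4 RPKM, 3.90-fold higher (3.35 to 4.56). Tank, a scaffold of the IRF kinases, was 2.08-fold higher (1.92 to 2.25) and Tlr9, the receptor of unmethylated DNA, 2.91-fold higher (2.33 to 3.64). Tbkbp1, another kinase scaffold, stood at 19.8 and 4.68 RPKM, 4.24-fold lower (3.48 to 5.19). Tmem173, which encodes the DNA-response adaptor STING, was 2.44-fold lower (2.16 to 2.76). Myd88, the adaptor through which most Toll-like receptors reach IRF5 and IRF7, was 2.10-fold lower (1.90 to 2.32). The IRF3 kinase gene Tbk1 stood at 41.6 and 58.2 RPKM and its relative Ikbke at 81.3 and 56.3 RPKM, each within 2-fold. With a pseudocount of 5 RPKM, 1 gene in place of 3 was higher.

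Few or no reads were listed for the interferons themselves. Of 18 type I interferon genes, 16 were listed in neither library and were taken as 0 reads. The annotation is not given, so genes that were never counted cannot be told from genes without reads. Ifnb1 had 1 read in the immature library and 0 in the mature one, and Ifnk had 2 and 1. A count of 0 allows up to 3 reads, which for a gene of 1000 bases is 0.397 RPKM (immature) or 0.372 RPKM (mature). Copies of the Ifna genes are alike, and only uniquely placed reads were counted, so their zeros are uncertain. Of 9 genes of interferon receptors and JAK kinases, 1 was higher, 0 lower and 8 within 2-fold, with a median of 0.34. The share higher, 11.1%, was near the 9.05% of all compared genes. Jak2, a kinase of the interferon-gamma and cytokine receptors, stood at 133 and 318 RPKM, 2.39-fold higher (2.31 to 2.47). Ifnar1 and Ifnar2, the chains of the type I interferon receptor, stood at 26.3 and 31.7 RPKM and at 30.9 and 49.98 RPKM.

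Irf9, which encodes this subunit of ISGF3, had 276 and 775 reads, 14.3 and 37.7 RPKM, 2.63-fold higher (2.29 to 3.03) at percentile 95.04 of the log2 folds. Stat2, whose protein acts with IRF9 in that complex, stood at 16.7 and 60.7 RPKM, 3.63-fold higher (3.31 to 3.99). Irf7, Irf8 and Irf9 were the 3 members with an interval wholly beyond 2-fold above no difference, as were 6.88% of all compared genes.

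Among 21 compared genes known to be driven through an ISRE by ISGF3 or IRF3, 12 were at least 2-fold higher, 0 lower and 9 within 2-fold, with a median log2 fold of 1.28. The share higher was 57.1%, beside 9.05% of all compared genes. Oasl1, a 2′-5′ oligoadenylate synthetase-like gene that restrains Irf7 translation, stood at 2.74 and 30.3 RPKM, 11.1-fold higher (8.13 to 15.4). Rsad2, which encodes the antiviral enzyme viperin, was 6.36-fold higher (5.32 to 7.65), the dynamin-like GTPase gene Mx2 9.49-fold higher (5.58 to 17.4) and Oasl2 4.79-fold higher (4.22 to 5.46). The list was not uniform. Cxcl10, a chemokine gene induced early by IRF3, had 27 and 16 reads, and Cmpk2, Ddx58 and Eif2ak2 had ratios of 1.05, 1.07 and 0.966.

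RefSeq promoters were held for 16 of the 22 genes of this ISRE list. Of these genes, 11 (68.8%) had an ISRE-like match in the window of any of their start sites. The list was made of genes known for an ISRE, so a high share follows from the choice. The 3.44% of all promoters counts start sites and not genes. Oasl1 and Oasl2, called higher, had a promoter without a match. So did Ifit2 and Cmpk2, within 2-fold, and Ifi44, below 1 RPKM. Of the 11 genes with a match, 6 were called higher: Ifit1, Ifit3, Isg15, Oas3, Rsad2 and Bst2. Stretches of 30 bases around a match before the start are shown for 4 of these and for 2 that lay within 2-fold, Cxcl10 and Oas1a, since the same letters stood before genes with different ratios. They run 5′ to 3′ on the gene's strand of GRCm38.p6, with the listed match in capitals. The stretches of Isg15 and Oas1a hold further, overlapping matches that are not marked. A match that reads TTTC at its ends is the motif on the other strand.
Ifit1, chr19:34640794-34640823 (+), match from 85 bases before the start: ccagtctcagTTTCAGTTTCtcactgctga
Isg15, chr4:156200871-156200900 (-), match from 72 bases before the start: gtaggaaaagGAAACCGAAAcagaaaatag
Oas3, chr5:120777715-120777744 (-), match from 75 bases before the start: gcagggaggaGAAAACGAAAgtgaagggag
Rsad2, chr12:26456553-26456582 (-), match from 120 bases before the start: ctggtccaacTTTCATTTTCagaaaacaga
Cxcl10, chr5:92349083-92349112 (-), match from 213 bases before the start: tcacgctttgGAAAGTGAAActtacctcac
Oas1a, chr5:120907526-120907555 (-), match from 20 bases before the start: cccttctcggGAAATGGAAActgaaaatct
Ifit1, Isg15 and Oas3 were 5.41-fold (3.93 to 7.60), 2.97-fold (2.07 to 4.36) and 2.92-fold higher (2.57 to 3.33), whereas Oas1a had a ratio of 1.14 (0.909 to 1.44) and Cxcl10 one of 0.555 (0.279 to 1.07). Over all compared genes with a promoter, 46 of 349 with an ISRE-like match were higher (13.2%) and 46 lower (13.2%), against 8.60% and 11.2% of the 8513 without one. For the ETS-IRF motif, 35 of 249 were higher (14.1%) and 23 lower (9.24%), against 8.63% and 11.3% of those without it.

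Irf1 and Irf2, the activator and the repressor that compete for the same sites, were near equal in both libraries. Irf1 had 809 and 954 reads, 49.7 and 54.9 RPKM, a ratio of 1.10 (1.005 to 1.21). Irf2 had 1064 and 1200 reads, 56.6 and 59.8 RPKM, a ratio of 1.06 (0.972 to 1.15). Irf1 stood at 0.878 (0.800 to 0.963) times Irf2 in the immature and at 0.918 (0.842 to 1.0004) times Irf2 in the mature one, and the change of this ratio, 1.05-fold (0.921 to 1.19), did not exceed counting error.

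Of 15 compared genes known as IRF1 targets, 8 were at least 2-fold higher, 1 lower and 6 within 2-fold, with a median of 1.22; the share higher was 53.3%, beside 9.05% of all compared genes. Nos2, the inducible nitric oxide synthase, stood at 10.9 and 293 RPKM, and Ptgs2, the inducible prostaglandin synthase, at 10.3 and 157 RPKM. The guanylate-binding protein gene Gbp5 was 7.12-fold higher (6.03 to 8.47) and the cytokine gene Il15, which sustains NK and memory T cells, 7.07-fold higher (4.52 to 11.6). Several of these genes are known targets of NF-kB too. The lower one was Cybb, a subunit of the NADPH oxidase, 3.23-fold lower (3.11 to 3.35), and Ciita, the master regulator of MHC class II, stood at 21.0 and 17.4 RPKM. Of the co-repressors that bind IRF2, Irf2bp2 stood at 42.6 and 20.3 RPKM, 2.10-fold lower (1.93 to 2.30), Irf2bp1 at 4.34 and 4.52 RPKM, and Irf2bpl was below 1 RPKM. Irf2bp2 was not called lower with a pseudocount of 5 RPKM, a common sum of RPKM or the interval required wholly beyond 2-fold.

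Irf8, needed for type 1 conventional dendritic cells, had 796 reads in the immature library and 8004 in the mature one, 37.2 and 350.4 RPKM. The ratio was 9.42 (8.76 to 10.1) and the log2 fold of 3.20 lay at percentile 99.7. By level Irf8 went from place 2144 to place 139 of 18090 genes. Irf4, associated with type 2 conventional dendritic cells and with the response to GM-CSF and IL-4, had 1794 and 3219 reads, 50.6 and 85.1 RPKM. It was 1.68-fold higher (1.59 to 1.78), beyond counting error but within 2-fold. Irf8 stood at 0.734 (0.675 to 0.799) times Irf4 in the immature library and at 4.12 (3.95 to 4.29) times Irf4 in the mature one, so the balance turned, by 5.60-fold (5.10 to 6.16).

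**Figure D3:**
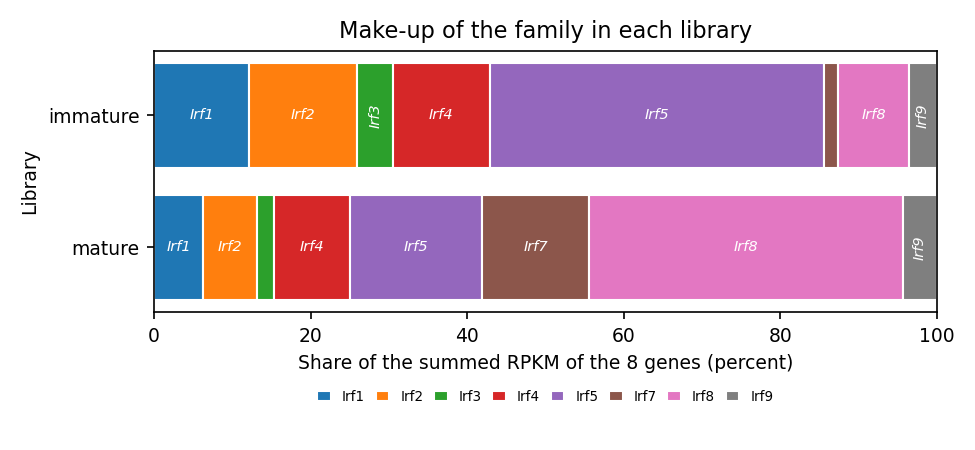
Share of each gene in the summed RPKM of the 8 family members, in percent, in the immature (top bar) and mature library (bottom bar), 1 library each. Irf5 holds 42.7% of the immature sum and 16.8% of the mature one, and Irf8 9.09% and 40.1%.

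As shares of the summed RPKM of the 8 genes, Irf8 went from 9.09% to 40.1% and Irf7 from 1.78% to 13.6%. Irf5 went from 42.7% to 16.8%, Irf1 from 12.1% to 6.29%, Irf2 from 13.8% to 6.85%, Irf4 from 12.4% to 9.75% and Irf3 from 4.54% to 2.22%, while Irf9 stood at 3.50% and 4.32%. Shares in a sum are bound to one another: those of Irf1, Irf2, Irf3 and Irf4 were smaller though their RPKM was not. The ratio of Irf8 to Irf5 was 0.213 (0.196 to 0.230) in the immature library and 2.38 (2.28 to 2.49) in the mature one, and that of Irf7 to Irf9 was 0.509 (0.401 to 0.641) and 3.16 (2.90 to 3.44). These 2 of the 5 pairs were chosen after the values were seen.

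IRFs bind DNA with partners of other families. Of 11 compared partner genes, 1 was higher (Stat2), 2 lower and 8 within 2-fold, where 9192 of all 11547 compared genes lay too, with a median of 0.16; with a pseudocount of 0.1 RPKM or the gene length trend removed, 2 were higher. Spi1, which encodes PU.1, stood at 278 and 120 RPKM, 2.32-fold lower (2.17 to 2.48), and Ikzf1, which encodes Ikaros, was 2.79-fold lower (2.49 to 3.14). Spib, a relative of Spi1, had 41 and 97 reads, 1.95 and 4.31 RPKM. Batf and Batf3, the AP-1 family partners of IRF4 and IRF8, stood at 16.1 and 18.1 RPKM and at 26.9 and 44.5 RPKM.

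Genes that mark the dendritic cell types needing IRF8 or associated with IRF4 were compared beside them. Of 8 compared genes of type 1 cells, 2 were higher, 3 lower and 3 within 2-fold, with a median of -0.041. The share lower was 37.5%, beside 11.3% of all compared genes, of which 9.05% were higher. Id2, an inhibitor of helix-loop-helix factors, stood at 208 and 429 RPKM, 2.06-fold higher (1.96 to 2.18). Itgae, which encodes CD103, had 541 and 6 reads, 96.2-fold lower (43.9 to 263), and Wdfy4, needed for cross-presentation, was 9.53-fold lower (8.70 to 10.5). The lysosomal acid amidase gene Naaa was 2.19-fold lower (2.05 to 2.34), and Ifi205, an interferon-inducible gene, had 9 and 63 reads. Xcr1 and Clec9a, surface markers that define type 1 cells, had 14 and 14 reads and 19 and 17 reads. With a pseudocount of 5 RPKM, a filter at 5 RPKM or the interval required wholly beyond 2-fold, 1 gene of this list in place of 2 was higher.

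Of 11 compared genes of type 2 cells, 2 were higher, 7 lower and 2 within 2-fold, with a median of -1.30. The shares were 18.2% higher and 63.6% lower, beside 9.05% and 11.3% of all compared genes. Mgl2, a galactose lectin gene, stood at 711 and 26.3 RPKM, 27.0-fold lower (24.2 to 30.3). Clec10a, a lectin gene of the same family, was 8.15-fold lower (5.80 to 11.7), and Cd209a had 65 and 0 reads, at least 23.1-fold lower if 3 mature reads are taken as the floor. Ccl22, a chemokine for CCR4-bearing T cells, was 8.34-fold higher (8.14 to 8.53). Ccl17, which binds the same receptor, was 3.31-fold lower (3.18 to 3.43).

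Among 8 cytokine and chemokine genes known as IRF5 targets, 4 were higher, 1 lower and 3 within 2-fold, with a median of 0.68. The share lower, 12.5%, was near the 11.3% of all compared genes, of which 9.05% were higher. Ccl5, a chemokine for T cells, stood at 109 and 7849 RPKM, Il6 at 14.6 and 135 RPKM, and Il12b, the p40 subunit of interleukin-12, had 2 and 369 reads. Tnf stood at 62.6 and 18.4 RPKM, 3.41-fold lower (2.94 to 3.96). Of 13 genes for proteins reported to modify or restrain IRFs, 1 was higher, 0 lower and 12 within 2-fold, with a median of 0.17. The share higher, 7.69%, was near the 9.05% of all compared genes. The higher one was Usp18, an inhibitor of the interferon receptor that the ISRE list also holds, with 33 and 115 reads, 3.26-fold higher (2.20 to 4.97). It was within 2-fold with a pseudocount of 5 RPKM.

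**Figure D4:**
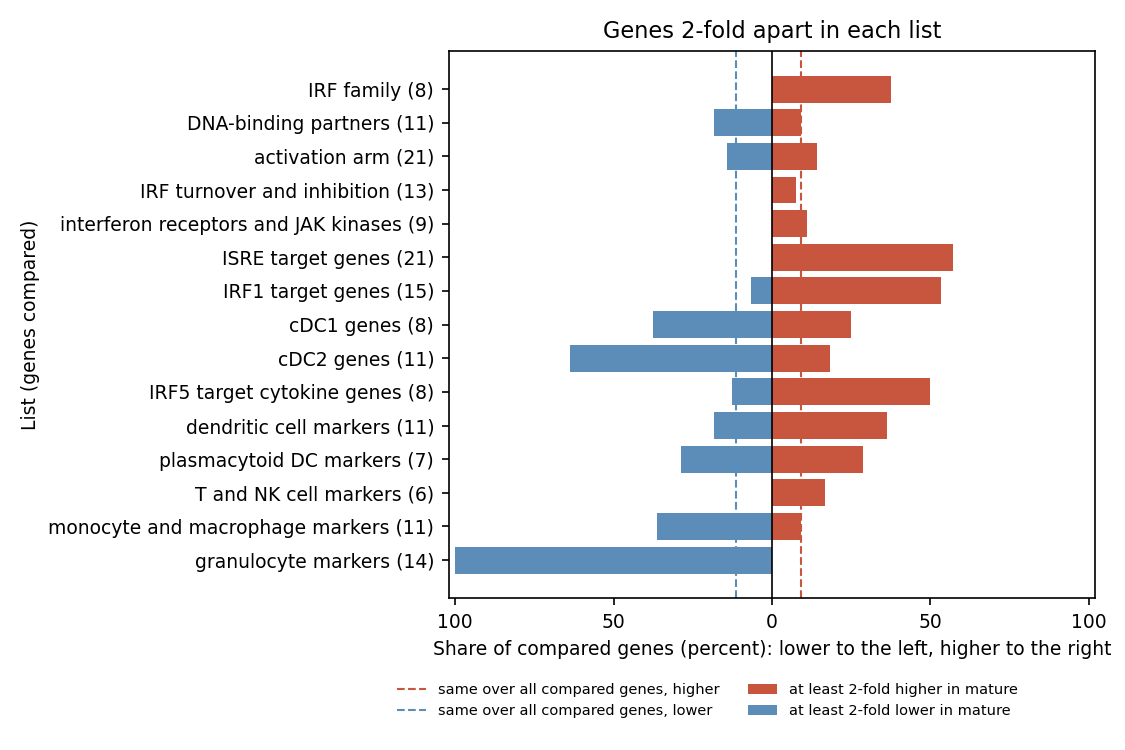
Percent of the compared genes of each list that were at least 2-fold higher (red, to the right) or lower (blue, to the left) in the mature library, with the number compared in parentheses and lists of under 5 left out. Dashed lines mark the 9.05% higher and 11.3% lower over all compared genes. ISRE targets, IRF1 targets and IRF5 target cytokines reach far beyond the red line. Granulocyte, cDC2 (type 2), cDC1 (type 1), monocyte and plasmacytoid genes are among those beyond the blue one. The same genes stand in more than 1 list in places. The lists were chosen with earlier results of these data known, so the shares are description only.

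The labelled cell type was set beside its markers, of which MHC class II and CD86 were also used to sort the cells, so that their levels are no independent check. The dendritic integrin gene Itgax stood at 407 and 148 RPKM, the MHC class II gene H2-Aa at 1159 and 1260.4 RPKM, and Zbtb46, a factor of conventional dendritic cells, at 4.51 and 13.2 RPKM. Of 11 compared dendritic cell genes 4 were higher (Ccr7, Cd86, Zbtb46 and Flt3) and 2 lower (Itgax and Dpp4), with a median of 0.16. The shares were 36.4% higher and 18.2% lower, beside 9.05% and 11.3% of all compared genes. With a pseudocount of 5 RPKM, 2 were higher and 1 lower.

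Other cells that use IRF genes were looked for by their markers. B and plasma cells, which use Irf4 and Irf8, left few reads. Of 11 markers Jchain was listed in neither library and 8 were below 1 RPKM. Pax5 had 2 reads in the immature library and 0 in the mature one. The summed level of these markers was 10.04 and 6.56 RPKM, most of it Cd22 at 7.45 and 4.50 RPKM, which myeloid cells can express too. Cd79b, a chain of the B cell receptor, had 4 and 14 reads. Plasmacytoid dendritic cells, which are rich in Irf7 and Irf8, had a summed marker level of 122 and 219 RPKM, with 2 of 7 compared genes higher and 2 lower and a median of -0.18. Of these markers, 28.6% were thus higher and 28.6% lower, beside 9.05% and 11.3% of all compared genes. None was higher with TMM factors, none lower with a pseudocount or filter of 5 RPKM or the gene length trend removed, and none called either way with the interval required wholly beyond 2-fold; with a pseudocount of 5 RPKM or the length trend removed 1 was higher. Most of that sum was Bst2 at 84.4 and 174 RPKM, which is also an interferon-induced gene of the ISRE list, while the defining marker Siglech had 1 and 2 reads. Runx2 was 2.15-fold higher (1.91 to 2.43), and the lower genes Ly6d and Cd300c had 7 and 6 reads in the immature library and 0 in the mature one.

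T and NK cell markers summed to 34.2 and 194 RPKM, nearly all of it Il7r at 28.3 and 185 RPKM. Cd3e had 6 and 8 reads and the granzyme gene Gzma 10 and 17. Of 6 compared genes 1 was higher and 0 lower, with a median of 0.60. The share higher was 16.7%, beside 9.05% of all compared genes. With a pseudocount of 0.1 RPKM 3 were higher and 1 lower. Monocyte and macrophage markers summed to 1325 and 757 RPKM, with 1 of 11 compared genes higher and 4 lower and a median of -0.80. The shares were 9.09% higher and 36.4% lower, beside 9.05% and 11.3% of all compared genes. Ccr2, which lets monocytes leave the marrow, had a value 31.6-fold lower (26.2 to 38.4), the Fc receptor gene Fcgr1 one 3.94-fold lower (3.32 to 4.70), and the matrix gene Vcan one 2.45-fold higher (2.28 to 2.64). C5ar1, the complement C5a receptor gene, was 2.11-fold lower (1.88 to 2.37). The lysosomal gene Cd68 and the growth factor receptor gene Csf1r, the most abundant of the list, stood at 684 and 392 RPKM and at 279.7 and 141 RPKM, within 2-fold. With a pseudocount of 5 RPKM, a common sum of RPKM or the interval required wholly beyond 2-fold, 2 of these genes were lower in place of 4, and with TMM factors or the length trend removed 5 were; none was higher with a pseudocount of 5 RPKM or the length trend removed. Granulocyte markers summed to 6958 and 861 RPKM, and all 14 compared were lower, with a median of -3.21. The share lower was 100%, beside 11.3% of all compared genes. Fcer1a and Ms4a2 were listed in neither library. The neutrophil genes S100a9 and S100a8 were the most abundant, with values 6.89-fold (6.57 to 7.23) and 7.96-fold (7.32 to 8.66) lower. The eosinophil genes Prg2 and Epx were 33.8-fold (23.3 to 50.7) and 33.6-fold (21.8 to 54.7) lower, and the neutrophil granule genes Camp and Elane 29.2-fold (18.04 to 50.6) and 22.1-fold (15.03 to 33.8) lower. Granulocyte and monocyte marker sums were thus lower in the library in which Irf7, Irf8 and Irf9 were higher. The plasmacytoid sum, mostly Bst2, and the T and NK sum, nearly all Il7r, were higher there. Cells of both groups had been sorted on surface I-Ab and CD86, and how the gates were set is not given in the sources used here. The part of these other cell types in the differences of Irf7, Irf8 and Irf9 was not tested.

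Reads were 49 bases long, as read from genes with 1 read, and the deposited coverage is the percent of a gene's length that reads touch. For Irf7 it was 88.0% in the immature library, where 93.3% would be covered if the 101 reads fell at random, and 99.4% in the mature one. Irf8 was covered over 92.7% and 99.8% and Irf4 over 99.7% and 99.1% of their lengths. Irf3 was covered over 77.0% and 84.0%, although random placement of its reads would cover 99.9% and 99.95%, and Irf2 over 91.6% and 89.2%. Irf9 was covered over 85.2% in the immature library, where random placement would cover 99.5%, and 96.2% in the mature one. Each of the 8 members was covered less in both libraries than random placement would give, Irf3 by the most. Where a gene has many reads a small part of them can cover it, so these values do not show how evenly the reads fell.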

How the data were processed

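RNA-seq values of 2 libraries, 1 immature and 1 mature, were used; the grouping follows the label of developmental stage. The deposited read counts are of uniquely placed reads per gene, unnormalised, per the file headers; they sum to the header totals of 7.56 M and 8.07 M. The authors' RPKM equals these counts per kilobase of the listed gene length and per 1000000 counted reads, within a relative deviation of 1.07e-07. The coverage percent was deposited by the authors and was used to describe read spread. Per the submitters' processing notes the build was mm8; for the aligner, the counter, the use of strand and the annotation, nothing is given in the sources used here.

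Symbols came from the RefSeq table of GRCm38.p6, for 16220 of 18090 IDs. Genes not listed in a library were taken as 0 reads. Log2 folds used a pseudocount of 1 RPKM and a filter of 1 RPKM in at least 1 library, a scale that understates changes of low genes. Ratio intervals are Clopper-Pearson 95% intervals on the mature share of a gene's reads; changes of ratios between members have exact conditional 95% intervals (scipy 1.17.1). PCR copies among the reads cannot be recognised without molecular identifiers, so reads are not independent molecules and intervals cover counting error only. Log2 folds and calls took a library with 0 reads as 0 RPKM plus the pseudocount. A floor of 3 reads in place of 0 served only for fold bounds and for the detection limit of the interferon genes. The intervals and calls were tested on simulated data. The simulated counts held counting error only, without PCR copies or differences between cultures. Alternatives were 10 settings, among them edgeR 4.0.16 TMM factors and DESeq2 1.42.0 size factors, used for scaling alone.

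The members and the 18 gene lists were chosen with earlier results of these data known. The text names each of the 8 members, the up to 4 largest log2 folds past 2-fold in each list, the 2 most abundant genes of the lists of other cell types, and for each called member the 3 genes closest in log2 (RPKM + 1) over the libraries. Other named genes, among them list members within 2-fold and those of the printed promoters, were chosen after their values were seen. Protein sequences were not used here. Some genes are not reported here.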

Additional observations from a re-analysis of the deposited data

How the results depend on the processing

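Irf7, Irf8 and Irf9 were the members called higher, 3 of 8, under each of the 10 alternative settings, and 0 members were lower under each. These were a pseudocount of 0.1 or 5 RPKM, no filter or one at 5 RPKM, TMM or DESeq2 scaling, a common sum of RPKM, a total without the 50 most abundant genes, removal of the gene length trend, and calls only where the counting interval lay wholly beyond 2-fold. Over the 9 settings that give a fold, the log2 fold ranged from 3.33 to 4.01 for Irf7, from 3.07 to 3.29 for Irf8, from 1.14 to 1.42 for Irf9, from 0.61 to 0.82 for Irf4 and from -0.29 to -0.16 for Irf5; those of Irf1, Irf2 and Irf3 stayed between 0.019 and 0.23. Over all genes, a pseudocount of 5 RPKM gave 469 higher and 686 lower genes in place of 1045 and 1310. No paired analysis was possible because each group has 1 library. Depth limits the low genes: the interferon genes cannot be compared. Without replicates, differences between cultures of the same state are not measured.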

Other observations

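The genes closest to each called member over the 2 libraries, by distance in log2 (RPKM + 1), were Slamf7, Sema7a and Map3k14 for Irf7, at 9.51 and 123, 6.15 and 147, and 10.3 and 104.7 RPKM. For Irf8 they were Vopp1, Cxcl16 and 2410006H16Rik, at 32.3 and 325, 48.8 and 341, and 41.0 and 259 RPKM. For Irf9 they were Mxi1, Ip6k1 and Clmp, with ratios of 2.67, 2.72 and 2.77. With 2 libraries such likeness is a match of 2 values and nothing more.

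TATAAA 40 to 20 bases before the start, held by Irf4, Irf7 and Irf8, was found for 130 compared genes, of which 30 were called higher in mature cells (23.1%) and 21 lower (16.2%). Of 8732 compared genes without it, 748 were higher (8.57%) and 977 lower (11.2%). Irf7 and Irf8 are themselves among the 30, and this motif was added after the sequences had been read. The shares are therefore description only. For the NF-kB motif the shares were 12.7% higher and 11.5% lower of 557 genes, against 8.51% and 11.2% of 8305 without it. For the GAS-like motif they were 7.95% higher and 12.8% lower of 742 genes, against 8.85% and 11.1% of 8120 without it.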
